A study of Mus musculus with 15 samples.

Results

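In all, 10 marker genes of the choroid plexus were followed in RNA from mouse striatum: Ttr, Folr1, Kl, Clic6, Aqp1, Slc4a5, Kcnj13, Otx2, Cldn2 and Prlr. They were chosen by name, as genes known for this tissue, and were read in all 15 libraries by genotype, with and without WT replicate 2. All 10 are among the 54232 gene identifiers counted, and 8 of them are among the 18278 genes that passed a filter on low counts and were tested; Kcnj13 and Cldn2 were not. None of the 8 tested genes differed between genotypes past the threshold. Within the WT group the genes spread widely, and 9 of the 10 had their highest level of all 15 libraries in WT replicate 2.

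The choroid plexus is a sheet of secretory epithelium that hangs in the brain ventricles and makes cerebrospinal fluid. It borders the fluid-filled side of the lateral ventricle, next to the striatum, and is not a part of the striatum itself. Its epithelium secretes transthyretin, passes folate from blood to fluid, moves ions and water, and is sealed by tight junctions.

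Striatal tissue was taken from 15 mice aged 6 months, of the genotypes E1 (n = 4), KI-96 (n = 4) and WT (n = 7), and RNA was counted per gene in 1 library per mouse. The study's title names Huntington's disease knock-in mice, in which the mouse Htt gene carries a disease-type change, and toxicity from RAN translation, the reading of repeats without a start codon. The labels name the genotypes E1 and KI-96 without describing them, and allele structure, strain and sex are not stated in the labels. Levels are CPM, counts scaled to the normalized library size. Each library has its own mouse number, so the p-values measure the spread between animals.

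Total counts were 18199927 to 19533231 in E1, 14678565 to 23373551 in KI-96 and 17281603 to 26388542 in WT. Markers of striatal neurons (12 genes, all tested) summed to 6588 to 10101 CPM in E1, 5583 to 8835 in KI-96 and 5955 to 9454 in WT, so the tissue label held in every group. In all, 3 libraries stood apart for 10 markers of cortical neurons, which summed to 1330 CPM in E1 replicate 2, 885 in E1 replicate 3 and 1205 in WT replicate 3. In the other 12 libraries they summed to 138 to 256 CPM. Without these 3 libraries the log2 fold change of Ttr, described below, was -1.35 in E1 against WT and -1.91 in KI-96 against WT. The 4 Y-linked genes summed to at most 0.0562 CPM in E1, at most 0.132 CPM in KI-96 and 0 in WT replicate 1, against 158 to 205 CPM in the other 6 WT libraries. Genotype and the presence of Y-linked reads therefore cannot be told apart in E1 or KI-96 against WT, except through WT replicate 1. KI-96 against E1 is free of this.

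The genes differed widely in level, with Ttr and Clic6 first. Per kilobase of exon, the WT median was 41.1 CPM per kb for Ttr, 5.56 for Clic6, 0.806 for Kl, 0.544 for Folr1, 0.436 for Otx2 and 0.248 for Aqp1. It was 0.200 for Prlr, 0.151 for Kcnj13, 0.119 for Slc4a5 and 0.104 CPM per kb for Cldn2. In WT and in E1 the ranges of Ttr and Clic6 did not overlap, nor did those of Clic6 and Kl, while all later neighbours in the order overlapped. In KI-96 the ranges of Ttr and Clic6 overlapped too.

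Ttr encodes transthyretin, a carrier of thyroid hormone and of retinol-binding protein, and is a main secreted product of the epithelium. It lies on chromosome 18, from 20665280 to 20674321 on the plus strand of GRCm38. Ttr had 39.0, 12.6, 53.7 and 30.1 CPM in E1 replicates 1 to 4, and 7.35, 21.1, 3.28 and 60.5 CPM in KI-96 replicates 1 to 4. In WT replicates 1 to 7 it had 24.9, 346, 164, 48.7, 20.1, 33.5 and 56.0 CPM. WT replicates 2 and 3 stood above all other libraries, KI-96 replicates 1 and 3 were the lowest, and the remaining libraries of the 3 genotypes overlapped. Means were 33.9 ± 17.2 CPM in E1 (SD, n = 4), 23.1 ± 26.1 in KI-96 (n = 4) and 99.0 ± 119 in WT (n = 7), so the SD exceeded the mean in KI-96 and in WT. Without WT replicate 2 the WT mean was 57.9 ± 53.8 CPM (n = 6).

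The log2 fold change of Ttr was -1.54 in E1 against WT (SE 0.95, 95% interval -3.61 to 0.52, adjusted p = 0.650 by edgeR's quasi-likelihood test). In KI-96 against WT it was -2.08 (SE 0.98, interval -4.21 to 0.05, edgeR adjusted p = 0.485). For KI-96 set against E1 the value was -0.53 (SE 1.03, interval -2.76 to 1.69, edgeR adjusted p = 0.837). None passed the threshold of 0.05. Without WT replicate 2 the values were -0.77 in E1 against WT (SE 0.80, edgeR adjusted p = 0.780) and -1.31 in KI-96 against WT (SE 0.82, edgeR adjusted p = 0.635). Leaving out KI-96 replicate 4 moved Ttr to -3.23 in KI-96 against WT and to -1.69 in KI-96 against E1. The value in KI-96 against E1 was -0.17 without KI-96 replicate 3 and -0.25 without KI-96 replicate 1. Dropping E1 replicate 3 gave -0.22 there, and dropping E1 replicate 2 gave -0.81. In bulk tissue, fewer cells of a type and less RNA per cell cannot be told apart, for Ttr and for every gene below.

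**Figure D1:**
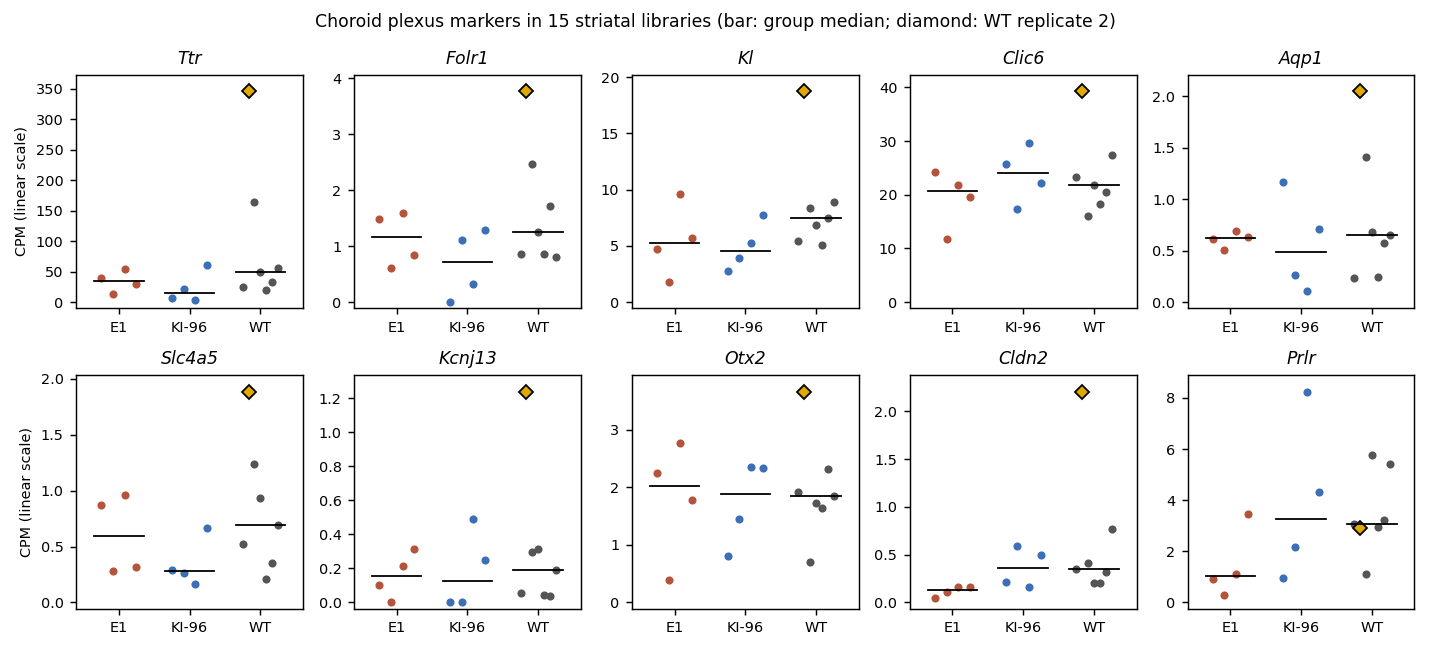
CPM of each of the 10 choroid plexus markers (vertical axes, linear) in every library, by genotype (horizontal axis, E1, KI-96, WT); points are single mice, bars are group medians and the diamond is WT replicate 2. The diamond is the highest point for 9 of the 10 genes, at 346 CPM for Ttr, and lies among the other WT points for Prlr at 2.91 CPM.

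Among secreted or membrane proteins that handle hormones and vitamins, Folr1 encodes the folate receptor alpha, which carries folate across the epithelium (chromosome 7, 101858331 to 101870788, minus strand). Folr1 had 1.49, 0.618, 1.60 and 0.840 CPM in E1, and 0, 1.12, 0.328 and 1.29 CPM in KI-96. In WT its lowest, median and highest values were 0.805, 1.25 and 3.77 CPM. The 0 in KI-96 replicate 1 allows up to 0.218 CPM at 3 counts, and the groups overlapped, with WT replicates 2 and 3 on top. The log2 fold change of Folr1 was -0.55 in E1 against WT (SE 0.57, edgeR adjusted p = 0.788), and -1.22 in KI-96 against WT (SE 0.61, edgeR adjusted p = 0.495). Folr1 overlaps Anapc15 on the opposite strand, and since the strand setting of the counting is not given, reads of the 2 genes cannot be told apart; Anapc15 had 1043 counts over all libraries and Folr1 381.

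Kl encodes klotho, a co-receptor for the hormone FGF23 that is also shed into the cerebrospinal fluid (chromosome 5, 150952607 to 150993817, plus strand). Kl had 4.71, 1.80, 9.63 and 5.72 CPM in E1, and 2.76, 3.88, 5.30 and 7.70 CPM in KI-96. WT values had a lowest, median and highest of 5.09, 7.52 and 18.7 CPM. Its highest library was WT replicate 2 and the next was E1 replicate 3, and the groups overlapped. The log2 fold change of Kl was -0.67 in E1 against WT (SE 0.41, edgeR adjusted p = 0.647), and -0.81 in KI-96 against WT (SE 0.42, edgeR adjusted p = 0.512). They were -0.37 and -0.51 without WT replicate 2.

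Prlr encodes the prolactin receptor, which is abundant in this epithelium (chromosome 15, 10177238 to 10349180, plus strand), and it had a different profile. Prlr had 0.922, 0.281, 1.12 and 3.46 CPM in E1, and 0.946, 2.17, 8.24 and 4.33 CPM in KI-96. Across the WT libraries the lowest, median and highest were 1.12, 3.07 and 5.78 CPM. KI-96 replicate 3 was the highest library and WT replicate 2, at 2.91 CPM, was ninth of 15; the groups overlapped. The log2 fold change of Prlr was -1.27 in E1 against WT (SE 0.61, edgeR adjusted p = 0.574) and 0.18 in KI-96 against WT (SE 0.56, edgeR adjusted p = 0.930). In KI-96 against E1 it was 1.45 (SE 0.67, interval 0.03 to 2.87, unadjusted p = 0.0464, adjusted p = 0.342 by edgeR), short of the threshold. That value was 0.81 without KI-96 replicate 3 and 2.34 without E1 replicate 4, and the value in E1 against WT was -2.17 without E1 replicate 4. The 10 markers of thalamus and habenula, 9 of them tested, summed to 87.3 to 347 CPM in KI-96, 74.0 to 111 in E1 and 81.9 to 164 in WT, with KI-96 replicates 3 and 4 highest at 210 and 347 CPM. Their part in the Prlr values was not tested. Prlr overlaps Gm21973 on the same strand, which had 0 counts over all libraries against 952 for Prlr. How reads shared by the 2 genes were counted is not stated, and the part of this overlap was not tested.

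Among channels and transporters, Clic6, a chloride intracellular channel protein, varied least (chromosome 16, 92485736 to 92541243, plus strand). Clic6 had 24.3, 11.7, 21.8 and 19.6 CPM in E1, and 25.8, 17.4, 29.7 and 22.2 CPM in KI-96. In WT its lowest, median and highest values were 16.0, 21.8 and 39.2 CPM. KI-96 replicate 3, the lowest library for Ttr, was second highest for Clic6 after WT replicate 2. Clic6 overlaps 2410124H12Rik on the same strand, which had 19 counts over all libraries against 6721 for Clic6. The log2 fold change of Clic6 was -0.30 in E1 against WT (SE 0.23, edgeR adjusted p = 0.708). For KI-96 against E1 it was 0.29 (SE 0.26, edgeR adjusted p = 0.608), and for KI-96 against WT it was -0.00 (SE 0.23, edgeR adjusted p = 0.998).

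Aqp1, the water channel of the apical membrane (chromosome 6, 55336432 to 55348555, plus strand), had 0.615, 0.505, 0.692 and 0.630 CPM in E1, and 1.16, 0.263, 0.109 and 0.708 CPM in KI-96. WT values had a lowest, median and highest of 0.232, 0.652 and 2.05 CPM. The E1 libraries lay close together inside the WT range, and KI-96 spread more widely. Slc4a5, a sodium bicarbonate cotransporter (chromosome 6, 83219828 to 83304945, plus strand), had 0.871, 0.281, 0.957 and 0.315 CPM in E1, and 0.291, 0.263, 0.164 and 0.666 CPM in KI-96. Across the WT libraries the lowest, median and highest were 0.205, 0.690 and 1.88 CPM. For both genes WT replicates 2 and 3 were the top pair and the groups overlapped. In KI-96 against WT the log2 fold change was -0.56 for Aqp1 (SE 0.59, edgeR adjusted p = 0.758) and -1.17 for Slc4a5 (SE 0.59, edgeR adjusted p = 0.499), and in E1 against WT it was -0.42 for each (edgeR adjusted p = 0.839 for Aqp1 and 0.827 for Slc4a5).

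Kcnj13, the inward-rectifier potassium channel Kir7.1 (chromosome 1, 87386363 to 87394729, minus strand), was too low to pass the filter. Kcnj13 had 2, 0, 4 and 6 counts in E1, 0, 0, 9 and 6 counts in KI-96, and in WT replicates 1 to 7 it had 1, 23, 5, 6, 1, 1 and 5 counts. The 0 counts allow up to 0.168 CPM in E1 replicate 2, 0.218 in KI-96 replicate 1 and 0.197 in KI-96 replicate 2. WT replicate 2, at 1.24 CPM, stood above the rest. Kcnj13 lies inside Gigyf2 on the opposite strand, which had 23215 counts against 69 for Kcnj13 over all libraries, so its few counts are uncertain.

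Cldn2 encodes claudin 2, a pore-forming tight junction protein for small cations and water (chromosome X, 139800828 to 139811386, plus strand), and it also missed the filter. Cldn2 had 1, 2, 3 and 3 counts in E1, 3, 9, 3 and 12 counts in KI-96, and in WT replicates 1 to 7 it had 6, 41, 7, 4, 5, 9 and 20 counts. In CPM, all 4 E1 libraries (0.0512 to 0.160) lay below all 7 WT libraries (0.205 to 2.21), and KI-96 spanned 0.164 to 0.592. Every E1 library was at or below 3 counts, so that order rests on a few reads. Of all genes tested, 0.799% had every E1 library below every WT library, and Cldn2 was not among those tested. With no filter, the log2 fold change of Cldn2 in E1 against WT was -2.34 (SE 0.69, edgeR unadjusted p = 0.00184, adjusted p = 0.549), which did not pass. In the fit with the filter, 8.75% of all genes had an edgeR unadjusted p under 0.05, and the share with no filter was not counted. Of the WT counts of Cldn2, WT replicate 2 held 41. With that library also left out, a setting added after seeing the data, the value was -1.62 (SE 0.64, edgeR unadjusted p = 0.0162, adjusted p = 0.679). The mean was 0.120 ± 0.0509 CPM in E1 (SD, n = 4), against 0.638 ± 0.717 in WT (n = 7) and 0.377 ± 0.207 in WT without replicate 2 (n = 6).

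Otx2 encodes a homeodomain transcription factor needed for choroid plexus development, whose protein the epithelium also secretes (chromosome 14, 48657677 to 48673819, minus strand). Otx2 had 2.25, 0.393, 2.77 and 1.78 CPM in E1, and 0.800, 1.45, 2.35 and 2.33 CPM in KI-96. In WT its lowest, median and highest values were 0.705, 1.84 and 3.66 CPM. WT replicate 3, the second highest library for Ttr, was the lowest WT library for Otx2, and the groups overlapped. Otx2 shares sequence positions with Otx2os1 on the opposite strand, which had 33 counts over all libraries. The log2 fold change of Otx2 was -0.13 in E1 against WT (SE 0.43, edgeR adjusted p = 0.945) and -0.17 in KI-96 against WT (SE 0.43, edgeR adjusted p = 0.916).

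In E1 against WT, edgeR called 0 of the 8 tested markers, beside 0.00547% of all genes tested (1 of 18278). At an unadjusted p under 0.05 it called 0 of the 8, beside 8.75% of all genes, while DESeq2 had 1 (Prlr), beside 9.66%, and limma-voom 1 (Prlr), beside 8.95%. All 8 had a log2 fold change below 0, beside 50.3% of all genes, and their median was -0.48 against -0.00 over all genes tested. Without WT replicate 2, where only edgeR was run, 7 of 8 were below 0, beside 50.1%, and the median was -0.17. At an unadjusted p under 0.05 edgeR again had 0 of 8, beside 9.06%. None of the 8 had all E1 libraries below, or all above, every WT library, which 0.799% of genes did downward and 0.892% upward. Cldn2, which is not among the 8, had all E1 libraries below every WT library, at 3 counts or fewer each.

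In KI-96 against WT, edgeR called 0 of the 8, beside 0.0% of all genes tested (0 of 18278), and 0 of the 8 at an unadjusted p under 0.05, beside 10.5%. DESeq2 had 4 of the 8 at an unadjusted p under 0.05, beside 11.5% of all genes. They were Ttr (DESeq2 adjusted p = 0.262), Folr1 (adjusted p = 0.345), Kl (adjusted p = 0.368) and Slc4a5, to which DESeq2 gave no adjusted p. By limma-voom it was 1 of 8 (Folr1), beside 9.94%. In all, 7 of 8 had a log2 fold change below 0, beside 52.1%, with Prlr the exception and Clic6 at -0.00, and the median was -0.69 against -0.01 over all genes. Without WT replicate 2, edgeR had 5 of 8 below 0, again beside 52.1%, and the median was -0.34. At an unadjusted p under 0.05 edgeR again had 0 of 8, beside 9.22%. DESeq2 and limma-voom were not run without that library. With that library left out, the log2 fold changes in E1 against WT were -0.21 for Folr1, -0.03 for Aqp1, -0.08 for Slc4a5, 0.09 for Otx2, -0.13 for Clic6 and -1.31 for Prlr. The values in KI-96 against WT were -0.89 for Folr1, -0.17 for Aqp1, -0.83 for Slc4a5, 0.05 for Otx2, 0.16 for Clic6 and 0.14 for Prlr. Aqp1 and Slc4a5 in E1 against WT thus lay near 0 without it. Both comparisons share the 7 WT libraries, so their shared direction is not 2 separate measurements. At an adjusted p under 0.05, limma-voom called 0 of the 8 in each comparison, and DESeq2 called 0 of those to which it gave an adjusted p.

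In KI-96 against E1, which does not use the WT libraries for its direction, edgeR called 0 of the 8, beside 0.0% of all genes. At an unadjusted p under 0.05 it called 1 of 8, Prlr, beside 14.3%, as did DESeq2, beside 15.6%, while limma-voom had 0, beside 13.6%. In all, 6 of 8 were below 0, beside 50.6%, with a median of -0.14 against -0.00 over all genes. In 0 of 8 were the KI-96 and E1 libraries apart, beside 2.29% of genes upward and 2.5% downward. With WT replicate 2 left out of the shared edgeR fit, Prlr no longer had an edgeR unadjusted p under 0.05, and 0 of 8 did, beside 13.7%. The intervals stayed wide: for Folr1 the log2 fold change was -0.68 (interval -2.10 to 0.74), and for Slc4a5 it was -0.74 (interval -2.13 to 0.65).

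**Figure D2:**
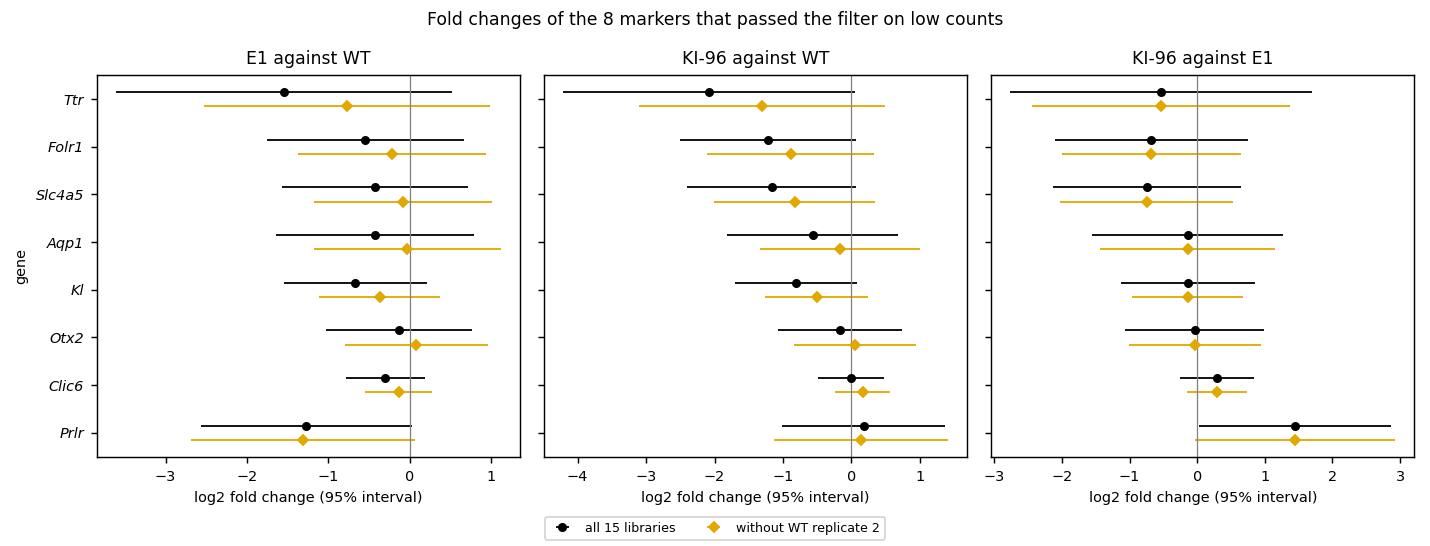
Log2 fold changes with 95% intervals (horizontal axes) of the 8 tested markers (rows) in E1 against WT, KI-96 against WT and KI-96 against E1; black circles use all 15 libraries and yellow diamonds leave out WT replicate 2. Leaving it out brings Ttr nearer to 0 in both comparisons with WT, to -0.77 and -1.31, and leaves KI-96 against E1 nearly in place; the interval of Prlr in KI-96 against E1 starts just above 0, at 0.03, with all libraries.

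WT replicate 2 stood above the other 6 WT libraries by different factors. Relative to their median it was 9.92-fold higher for Kcnj13, 8.42-fold for Ttr, 6.61-fold for Cldn2, 3.56-fold for Folr1, 3.35-fold for Aqp1 and 3.11-fold for Slc4a5. It was 2.60-fold higher for Kl, 2.06-fold for Otx2 and 1.85-fold for Clic6, and for Prlr the ratio was 0.921. The median ratio over all genes tested was 1.01. WT replicate 2 was the highest of the 15 libraries for 7 of the 8 tested markers, beside 4.62% of all genes tested, and at least 2-fold above the other WT median for 6 of 8, beside 1.3%. This library is named in the way the genes were to be read, so these shares describe it and test nothing.

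The 10 markers summed to 28.3 to 92.7 CPM in E1, 39.3 to 101 in KI-96 and 49.5 to 422 in WT. Ttr made up 82.0% of the sum in WT replicate 2 and 83.6% in WT replicate 3, but 6.54% in KI-96 replicate 3 and 18.7% in KI-96 replicate 1. Without Ttr the sum was 75.7 CPM in WT replicate 2 and 46.8 CPM in KI-96 replicate 3, and it was lowest, at 15.7 CPM, in E1 replicate 2. That E1 library was the lowest of all 15 for 5 of the 10 genes, ties counted. The genes thus did not keep 1 ratio to each other: there were 10.0 to 91.8 Ttr reads per Folr1 read over the 14 libraries with Folr1 reads, 0.110 to 10.2 per Clic6 read and 0.397 to 147 per Prlr read over all 15.

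**Figure D3:**
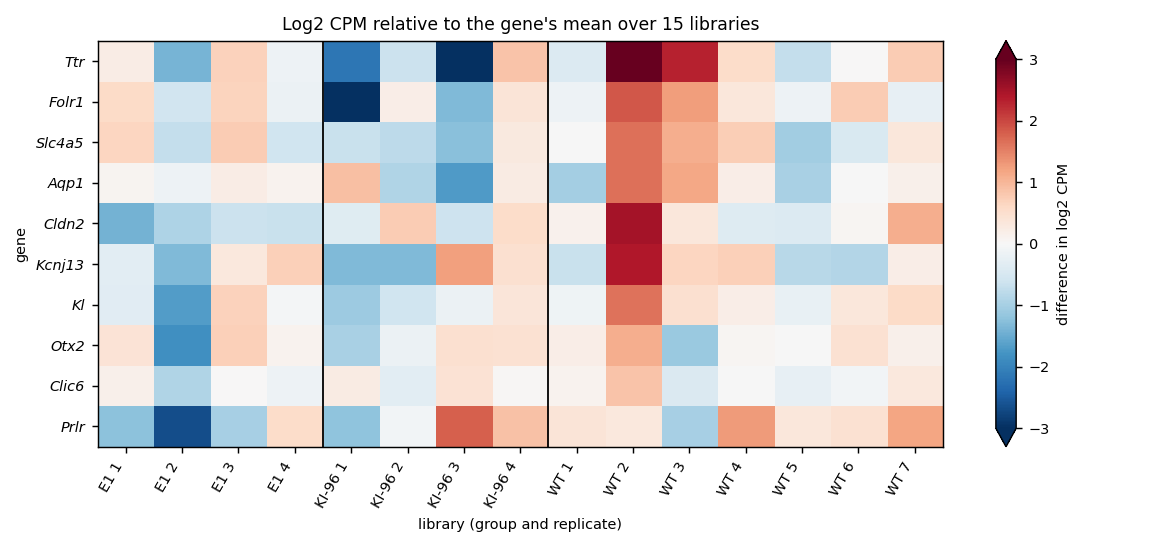
Level of each of the 10 markers (rows) in each library (columns, E1, KI-96 and WT), as log2 CPM minus the gene's mean over the 15 libraries (colour scale). WT replicate 2 is the highest library in every row but that of Prlr, E1 replicate 2 is among the 3 lowest libraries for 8 of the 10, and the rows of Clic6 and Prlr follow other libraries than that of Ttr.

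After centring each gene, the distance of a marker from the mean of the other 7 tested markers was taken as the root mean square difference of log2 CPM over the 15 libraries. Kl was nearest at 0.27, followed by Slc4a5 at 0.52, Clic6 at 0.65 and Otx2 at 0.67, with Aqp1 at 0.84 and Folr1 at 0.87. The distance is not scaled for how much a gene varies, and Clic6 had the smallest SD of log2 CPM, at 0.41. Ttr at 1.18 and Prlr at 1.25 were farthest: Ttr moved over a wider range (SD of log2 CPM 1.64), while Prlr moved in other libraries. The genes outside the set nearest to the markers' mean profile, of 13552 ranked, were F5 at 0.29, Sostdc1 at 0.34 and Tmem72 at 0.36, against a median of 0.70. These 3, with Msx1 and Col8a1, are 5 of the nearest 10 and also stand on a list of 26 other choroid plexus genes, 22 of them tested. The rest were Adora2b, Spata5l1, Gsdmd, Trp73 and Ormdl2. The markers and that list were chosen with earlier results of these data known, so the 5 describe the profile and test nothing. F5, coagulation factor V, had 6.41 CPM in WT replicate 2 against a median of 1.83 CPM in the other 6 WT libraries. Leaving out WT replicate 2, F5 was nearest at 0.29 and Gsdmd second, Tmem72 was at 0.37, and 3 of the nearest 10 (F5, Sostdc1 and Tmem72) were on that list. Over all 15 libraries, the distances of Aqp1, Folr1, Ttr and Prlr were above 0.70, the median of the ranked genes. Marker distances were taken from the mean of the other 7 markers, those of the ranked genes from the mean of all tested markers.

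Upstream sequence was read for the markers with an entry in the RefSeq promoter table of build GRCm38.p6, as 250 bases before each annotated start: 12 windows of 7 genes (Kcnj13, Kl, Aqp1, Slc4a5, Otx2, Prlr and Cldn2). They are shown because most of these genes were high in the same library. The letters TAATCC, which OTX2 and related homeodomain proteins bind, were searched on both strands. Of the 12 windows 1 held them, 1 of the 4 Otx2 windows, on the reverse strand (in capitals, 211 bases before the start); 6.25% of 32851 mouse windows did. A match is a description only, and a window without these letters says nothing about the factor. Kl is shown as the gene nearest to the common profile, and Kcnj13 and Cldn2 as 2 with a large ratio in WT replicate 2. They are Kl chr5:150952357-150952606 plus strand, Kcnj13 chr1:87394730-87394979 minus strand, Cldn2 chrX:139800558-139800807 plus strand and Otx2 chr14:48665110-48665359 minus strand.
Kl: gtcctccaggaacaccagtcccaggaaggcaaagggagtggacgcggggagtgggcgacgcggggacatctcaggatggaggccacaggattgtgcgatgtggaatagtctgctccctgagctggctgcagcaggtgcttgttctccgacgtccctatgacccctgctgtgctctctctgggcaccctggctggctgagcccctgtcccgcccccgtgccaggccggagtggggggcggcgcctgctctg
Kcnj13: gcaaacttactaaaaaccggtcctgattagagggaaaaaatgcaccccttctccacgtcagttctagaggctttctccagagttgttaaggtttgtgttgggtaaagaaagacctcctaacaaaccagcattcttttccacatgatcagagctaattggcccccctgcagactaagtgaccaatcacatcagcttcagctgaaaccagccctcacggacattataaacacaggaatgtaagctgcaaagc
Cldn2: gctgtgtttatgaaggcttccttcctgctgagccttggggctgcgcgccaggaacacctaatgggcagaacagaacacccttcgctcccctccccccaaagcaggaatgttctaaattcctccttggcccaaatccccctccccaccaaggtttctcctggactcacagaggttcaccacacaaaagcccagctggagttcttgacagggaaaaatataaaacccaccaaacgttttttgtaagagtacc
Otx2: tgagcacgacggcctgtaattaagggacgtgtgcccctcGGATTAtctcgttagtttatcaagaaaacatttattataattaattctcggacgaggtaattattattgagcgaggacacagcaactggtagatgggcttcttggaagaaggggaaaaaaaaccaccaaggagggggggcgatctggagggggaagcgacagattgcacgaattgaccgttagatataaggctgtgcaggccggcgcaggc

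A list of 26 other genes known for the choroid plexus, 22 of them tested, gave the wider picture. In each of the 3 comparisons 0 of the 22 rose and 0 fell by edgeR. In E1 against WT 16 of 22 were below 0, with a median log2 fold change of -0.22, in KI-96 against WT 19 were, with a median of -0.41, and in KI-96 against E1 15 were, with a median of -0.07. All genes tested were below 0 in 50.3%, 52.1% and 50.6% in that order. At an unadjusted p under 0.05 there were 5, 5 and 3 of the 22, beside 8.75%, 10.5% and 14.3% of all genes. Leaving out WT replicate 2 gave 13, 19 and 15 below 0, beside 50.1%, 52.1% and 50.6% of all genes. The medians were then -0.10, -0.28 and -0.07. At an unadjusted p under 0.05 edgeR then had 3, 2 and 3 of the 22, beside 9.06%, 9.22% and 13.7%. With the level of Y-linked genes as a covariate, the direction in E1 against WT turned, with 8 of 22 below 0 and a median of 0.11. In KI-96 against WT 14 of 22 were then below 0, with a median of -0.12. The medians over all genes tested were 0.02 and 0.01 in that setting. The 9 libraries without Y-linked reads gave medians of 0.10 in E1 against WT and -0.09 in KI-96 against WT over 23 tested genes. The list summed to 307 to 509 CPM in E1, 344 to 461 in KI-96 and 402 to 677 in WT, most of it from Enpp2, the enzyme autotaxin, which oligodendrocytes also express. Enpp2 alone had 503 CPM in WT replicate 2, the library with the sum of 677, and at most 386 CPM in the other WT libraries. The sum without Enpp2 was not taken. WT replicate 2 was the highest library for 12 of the 22 tested genes, beside 4.62% of all genes. The list was chosen with earlier results of these data known, and this library is named in the way the genes were to be read. This share and the ratios that follow describe the library and test nothing. Relative to the other WT median, WT replicate 2 had a median ratio of 1.62 over the 22. It was at least 2-fold above for 7 of 22, beside 1.3% of all genes. Sostdc1, a secreted antagonist of BMP and Wnt signals, was 4.59-fold above, and Kcne2, a potassium channel subunit of this epithelium, 3.48-fold. Enpp2, Car12 and Cab39l, the 3 of highest mean CPM, had ratios of 1.61, 1.09 and 1.21. The lowest ratios were 0.597 for Krt8 and 0.647 for Slc29a4.

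Striatal markers were also high in WT replicate 2, at 9454 CPM, the highest WT library and second of all 15 after E1 replicate 1 at 10101 CPM; their part in the choroid plexus values was not tested. Summed markers of ependyma, meninges, endothelium, blood and septum did not have their highest value in WT replicate 2. The 15 markers of ependyma, the ciliated lining of the ventricles, 14 of them tested, summed to 66.3 to 144 CPM in E1, 62.9 to 91.0 in KI-96 and 75.4 to 132 in WT, with 126 CPM in WT replicate 2. Of the 14, edgeR called 0 in each comparison. The median log2 fold change was 0.27 in E1 against WT, -0.54 in KI-96 against WT and -0.79 in KI-96 against E1. In E1 against WT 3 of the 14 were below 0, and in both KI-96 comparisons all 14 were. The share of all genes tested below 0 was 50.3%, 52.1% and 50.6% in that order. At an unadjusted p under 0.05 edgeR had 1, 4 and 7 of the 14, beside 8.75%, 10.5% and 14.3% of all genes. The level of Y-linked genes as a covariate leaves WT replicate 1 to carry the comparisons with WT. In that setting 11 of the 14 were below 0 in KI-96 against WT, with a median of -0.32. In E1 against WT it was 1 of the 14, with a median of 0.57. The 10 markers of meningeal fibroblasts, all tested, summed to 29.5 to 42.7 CPM in E1, 36.6 to 48.5 in KI-96 and 25.2 to 37.8 in WT, with 36.8 CPM in WT replicate 2. Endothelial markers (10 genes) summed to 261 to 345 CPM in E1, 270 to 342 in KI-96 and 226 to 380 in WT, with 284 CPM in WT replicate 2. The 5 blood markers summed to 61.1 to 513 CPM in E1, 87.2 to 142 in KI-96 and 79.2 to 216 in WT, with 155 CPM in WT replicate 2. The 8 markers of the septum, another border of the ventricle, summed to 92.2 to 177 CPM in E1, 117 to 170 in KI-96 and 104 to 166 in WT, with 104 CPM in WT replicate 2. Every gene of these lists had counts in each genotype.

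**Figure D4:**
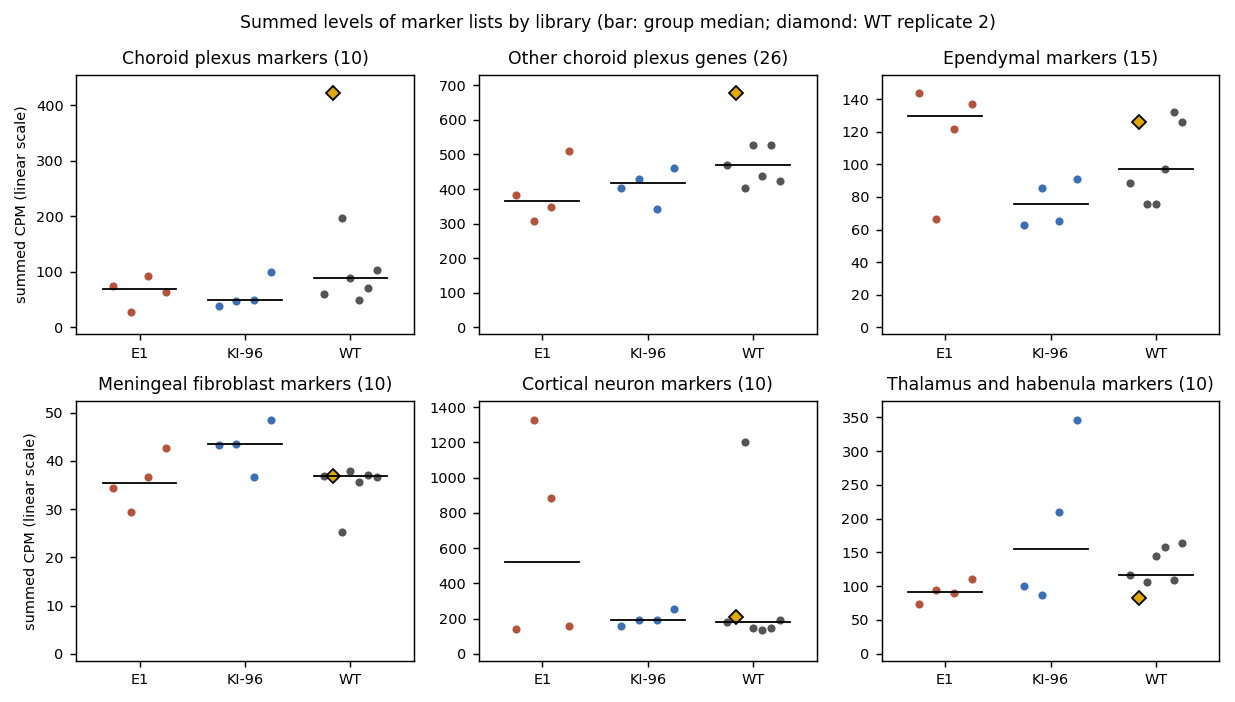
Summed CPM (vertical axes, linear) of 6 marker lists in each library by genotype (horizontal axis, E1, KI-96, WT); bars are group medians and the diamond is WT replicate 2. The diamond is the highest point for both choroid plexus lists, at 422 and 677 CPM, and lies inside the WT range for ependyma and meninges. Of the 677 CPM, 503 were of Enpp2, which oligodendrocytes also express. Cortical markers are high in E1 replicates 2 and 3 and WT replicate 3.

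With the level of Y-linked genes (their summed log2 CPM) as a covariate, which leaves WT replicate 1 to carry the comparison, the Ttr log2 fold change was 0.41 in E1 against WT (SE 1.63) and -0.13 in KI-96 against WT (SE 1.58). The median of the 8 tested markers was then 0.08 in E1 against WT and -0.12 in KI-96 against WT. WT replicate 1 had 24.9 CPM of Ttr, inside the range of E1 and of KI-96. With 1 WT library behind them these values have wide errors, and edgeR called 0 of the markers.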

How the data were processed

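The deposited table holds whole-number counts per gene for 15 mice, deposited as raw counts without normalization by the authors. The submitters' processing notes name STAR, HTSeq, GRCm38 and DESeq2 1.24.0 without settings; no source used here states strandedness. Of 54232 identifiers, 54165 matched GENCODE M21, which gave symbols and coordinates.

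The 33 within-group library pairs all differed by more than sampling noise (smallest chi-square per degree of freedom 8.65). Genes were kept with edgeR 4.0.16's default filter (minimum count 10). One quasi-likelihood model with robust estimation and TMM normalization was fitted to all 15 libraries, with genotype as the single factor, and tested on simulated data. P-values are two-sided, Benjamini-Hochberg adjusted over all 18278 genes, threshold 0.05. CPM used TMM-normalized library sizes; log2 CPM used a prior count of 2. Limits at 0 use 3 counts and cover counting error only. Alternatives were DESeq2 1.42.0, limma-voom 3.58.1, other normalizations, filters and sample sets. The 10 markers were all named. Nearest genes were the 10 of smallest profile distance, after leaving out genes of low mean level and those with symbols of predicted or Rik genes. The markers and lists were chosen with earlier results of these data known.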

Additional observations from a re-analysis of the deposited data

Results flagged for a closer look

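In 3 of 30 groups of values (10 genes in 3 genotypes), 1 library lay far from the rest by Dixon's criterion, all 3 in WT replicate 2. They were Kl at 18.7 CPM, Kcnj13 at 1.24 CPM and Cldn2 at 2.21 CPM. Chance alone flags about 1 in 20 groups of normally spread values, a rate that need not hold for CPM on a linear scale. The values of 1 library are also not independent of each other. WT replicate 2 was named in the way the genes were to be read, so these flags describe it and test nothing. Ttr in WT replicate 2, at 346 CPM, did not meet the criterion, because WT replicate 3 was also high at 164 CPM.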

How the results depend on the processing

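Under each of 25 alternatives, 0 markers passed the threshold in any comparison, and the smallest adjusted p of a marker was 0.118. Of 590 values of single markers, 551 kept their direction and their side of the threshold and 39 reversed.

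In E1 against WT, the covariate for Y-linked reads gave log2 fold changes of 0.41 for Ttr, 0.39 for Folr1, 1.30 for Aqp1 and 0.17 for Slc4a5. The 9 libraries without Y-linked reads, a setting chosen after seeing the data, gave 0.44 for Ttr, 0.38 for Folr1, 0.0078 for Kl, 1.37 for Aqp1 and 0.22 for Slc4a5. In KI-96 against WT, Clic6 was 0.0077 with DESeq2's size factors in edgeR, 0.0074 by DESeq2, 0.030 by limma-voom, 0.024 with the covariate and 0.014 in the 9 libraries. Prlr was -0.013 by limma-voom, and Aqp1 was 1.16 with the covariate and 1.23 in the 9 libraries. No filter together with leaving out WT replicate 2, also chosen after seeing the data, gave 0.077 for Otx2 in E1 against WT, and 0.14 for Clic6 and 0.029 for Otx2 in KI-96 against WT. In KI-96 against E1, limma-voom gave 0.045 for Kl and 0.19 for Otx2. Apart from the settings for Y-linked reads, whose construction leaves 1 WT library to compare with, the cause was not tested.

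Leaving out 1 library at a time, Otx2 ran from -0.41 to 0.20 in E1 against WT, Ttr from -1.86 to -0.77 and Prlr from -2.17 to -0.93. In KI-96 against WT, Ttr ran from -3.23 to -1.31, Clic6 from -0.13 to 0.16, Otx2 from -0.35 to 0.057 and Prlr from -0.46 to 0.49. In KI-96 against E1, Ttr ran from -1.69 to -0.17, Prlr from 0.81 to 2.34, Kl from -0.45 to 0.28, Aqp1 from -0.69 to 0.21 and Otx2 from -0.37 to 0.24. The median of the tested markers ran from -0.75 to -0.17, from -0.96 to -0.34 and from -0.37 to 0.24 in the 3 comparisons in that order.

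Genes called over the whole table in E1 against WT numbered 1, and 0 with no filter, 58 by DESeq2 and 2 by limma-voom. They numbered 4 with the replicate block, and 0 with the 2 groups alone and without the 3 cortical libraries. With no filter and no WT replicate 2 they numbered 0 too. Leaving out 1 library gave 0 to 257, with 257 without E1 replicate 4 and 12 without WT replicate 1. In KI-96 against WT they numbered 0, and 1 with no filter (also without WT replicate 2), 72 by DESeq2 and 6 with the block; leaving out 1 library gave 0 to 11, with 11 without WT replicate 1. In KI-96 against E1 they numbered 0, and 3 with no filter (also without WT replicate 2) and 206 by DESeq2; leaving out 1 library gave 0 to 190, with 190 without E1 replicate 4 and 128 without KI-96 replicate 4.

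The labels do not pair mice of equal replicate number. Correlations of same-numbered libraries were -0.103 to 0.194, and 3, 2 and 4 of 8 libraries correlated best with their own number. So few values cannot settle whether equal numbers share anything beyond the label. With the replicate block 0 markers were called, and the medians were -0.83, -0.98 and -0.16. Folr1, Aqp1, Slc4a5, Kcnj13 and Cldn2 lay at low counts in each library, which limits their precision.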
